A study of Homo sapiens with 6 samples.

Results

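ERAP1, ERAP2 and LNPEP are neighbouring genes of M1 zinc aminopeptidases on chromosome 5, and they were chosen by gene symbol and position out of the 60623 genes of the deposited tables. They were selected on their measured counts and TPM in CCS1477 against DMSO, which were known when the choice was made. All 3 were among the 14928 genes with enough counts to be tested. The libraries were made from poly-A RNA of DU145 cells, a human cell line established from prostate cancer, whose genotype is labelled WT. In 3 libraries the cells had been given 1 µM CCS1477 for 24 h, and in 3 they had been given the solvent DMSO for 24 h. CCS1477 (inobrodib) binds the bromodomain of p300 and of CBP, a pair of histone acetyltransferases, and blocks it. The study asked how this treatment changed transcription. The labels do not say whether the replicates were separate cultures, so errors and p-values reflect only the variation among these libraries, which could be technical.

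M1 aminopeptidases are zinc enzymes that remove single amino acids from the N terminus of peptides. ERAP1 and ERAP2 sit in the endoplasmic reticulum and trim peptides that the TAP transporter has brought in, so that they fit the groove of MHC class I molecules. ERAP1 acts as a molecular ruler that prefers longer peptides, and ERAP2 prefers basic N-terminal residues. LNPEP, also called IRAP or oxytocinase, is anchored in the membrane of endosomes and of the vesicles that carry the glucose transporter GLUT4, where it cleaves peptide hormones and trims peptides for cross-presentation. ERAP1 and ERAP2 are known to be inducible by interferon.

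Library totals ran from 8286880 to 11956734 counts, and 3 counts, taken as the floor, corresponded to 0.251 to 0.362 CPM (counts scaled to the library total). The CPM given as levels of genes were also scaled between libraries by TMM. All 4 epithelial markers were present, summing to 1665 to 1799 CPM in CCS1477 and 1816 to 2025 CPM in DMSO. KRT8 lay between 733 and 856 CPM over the 6 libraries, but CDH1 averaged 85.01 ± 2.33 CPM in CCS1477 and 190.9 ± 21.8 CPM in DMSO (SD, n = 3 each; log2 fold change -1.17, Benjamini-Hochberg adjusted p = 1.64e-05 in edgeR). The prostate luminal marker KLK3 had 0 counts in every library, as did the leukocyte markers PTPRC and CD3E. With CD68, the leukocyte list summed to 28.1 to 31.9 CPM in CCS1477 and 41.5 to 50.3 CPM in DMSO. The part of these marker differences in the results on the aminopeptidases was not tested. The lowest count of any of the 3 aminopeptidase genes in a library was 436, for ERAP2 in CCS1477 library 3, which carries a counting error of 4.79%.

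By the files' coordinates the 3 genes lie within 276.7 kb of chromosome 5. ERAP1 (ENSG00000164307, 96760810 to 96808100) is read from the minus strand. ERAP2 (ENSG00000164308, 96875939 to 96919716) and LNPEP (ENSG00000113441, 96935394 to 97037513) are read from the plus strand. The start sites of ERAP1 and ERAP2 point away from each other across 67.8 kb, and LNPEP starts 15.7 kb beyond the end of ERAP2 on the same strand. The starts of all 3 genes, and the ends of ERAP1 and ERAP2, are those of the GRCh38 annotation GENCODE 29. There the longest coding transcripts have 20 exons and 5495 bases for ERAP1, 19 exons and 5705 bases for ERAP2, and 18 exons and 12752 bases for LNPEP.

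RefSeq promoter windows (build GRCh38.p14, 250 bases before to 50 after a start site) were searched on both strands for the core of the interferon-stimulated response element, which reads GAAA, any 2 bases and GAAA, because both ERAP genes are inducible by interferon. This search was chosen after the sequences were seen. The core was found once in 1 of the 2 windows of ERAP1 and once in 1 of the 2 windows of ERAP2, and in neither of the 2 windows of LNPEP. Over the whole table, 3.57% of 35116 windows held it, and 4.38% of 27305 genes had it in any window. The window of each ERAP gene with a match is shown up to its start site or the end of the match, with the first LNPEP window beside them. The ERAP windows were thus picked by the match. For ERAP2 the window shown is the second, with its start site at 96876500, inside the gene. The first ERAP2 window, with its start site at 96875984, nearer the start of the gene, had no match. Capitals mark the match, which reads TTTC first where it lies on the other strand.
ERAP1, chr5:96807934-96808195, minus strand: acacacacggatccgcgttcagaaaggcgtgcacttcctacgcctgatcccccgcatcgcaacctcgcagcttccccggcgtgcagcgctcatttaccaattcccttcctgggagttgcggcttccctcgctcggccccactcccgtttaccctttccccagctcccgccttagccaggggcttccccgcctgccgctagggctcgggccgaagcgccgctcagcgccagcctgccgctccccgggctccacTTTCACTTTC
ERAP2, chr5:96876250-96876499, plus strand: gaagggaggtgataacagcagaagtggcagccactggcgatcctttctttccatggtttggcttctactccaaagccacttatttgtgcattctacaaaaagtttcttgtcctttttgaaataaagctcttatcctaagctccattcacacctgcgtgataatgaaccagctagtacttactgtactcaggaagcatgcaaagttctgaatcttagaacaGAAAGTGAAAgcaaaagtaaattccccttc
LNPEP, chr5:96935830-96936079, plus strand: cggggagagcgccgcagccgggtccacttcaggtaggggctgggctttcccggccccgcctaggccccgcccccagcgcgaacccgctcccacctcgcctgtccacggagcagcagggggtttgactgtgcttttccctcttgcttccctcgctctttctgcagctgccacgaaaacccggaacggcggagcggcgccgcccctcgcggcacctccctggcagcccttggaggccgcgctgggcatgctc
In ERAP1 the match covers bases 253 to 262 of the window, just past the start site at base 251, and in ERAP2 bases 221 to 230, before the start site. The motifs GAS (TTCNNNGAA, in 7.66% of windows) and AP-1 (TGANTCA, in 7.71%) were absent from the 3 windows shown, and GAS occurred once in the second LNPEP window. A match is a description of letters and does not show that a factor binds there.

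ERAP2, the trimming enzyme for basic N termini, was the lowest of the 3 after CCS1477 relative to DMSO. Its level was 51.4, 50.3 and 49.8 CPM in CCS1477 libraries 1, 2 and 3, against 117.3, 125.3 and 93.6 CPM in DMSO libraries 1, 2 and 3. The 3 CCS1477 values lay within 2 CPM of each other, and every one was below the lowest DMSO value. Means were 50.5 ± 0.804 CPM in CCS1477 and 112.1 ± 16.5 CPM in DMSO (SD, n = 3 each). The fitted log2 fold change was -1.15 ± 0.11 (SE), or 0.45 times the DMSO level. In bulk RNA, fewer cells with a transcript and less of it per cell cannot be told apart.

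ERAP1, which trims longer precursors, was lower by a smaller step. It had 53.5, 50.7 and 50.3 CPM in CCS1477 libraries 1, 2 and 3, against 88.0, 99.4 and 81.04 CPM in DMSO libraries 1, 2 and 3. The CPM of the groups did not overlap. Means were 51.5 ± 1.76 CPM in CCS1477 and 89.5 ± 9.26 CPM in DMSO (SD, n = 3 each), with a log2 fold change of -0.80 ± 0.10 (SE), or 0.575 times the DMSO level.

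LNPEP, the endosomal member, stood at almost the same level in both groups. It had 123.9, 112.2 and 99.5 CPM in CCS1477 libraries 1, 2 and 3, against 114.7, 127.3 and 102.2 CPM in DMSO libraries 1, 2 and 3. The groups overlapped over nearly their whole range, with means of 111.9 ± 12.2 CPM in CCS1477 and 114.7 ± 12.6 CPM in DMSO (SD, n = 3 each). Its log2 fold change was -0.04 ± 0.11 (SE), and 0.01 with scaling by library size alone.

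**Figure D1:**
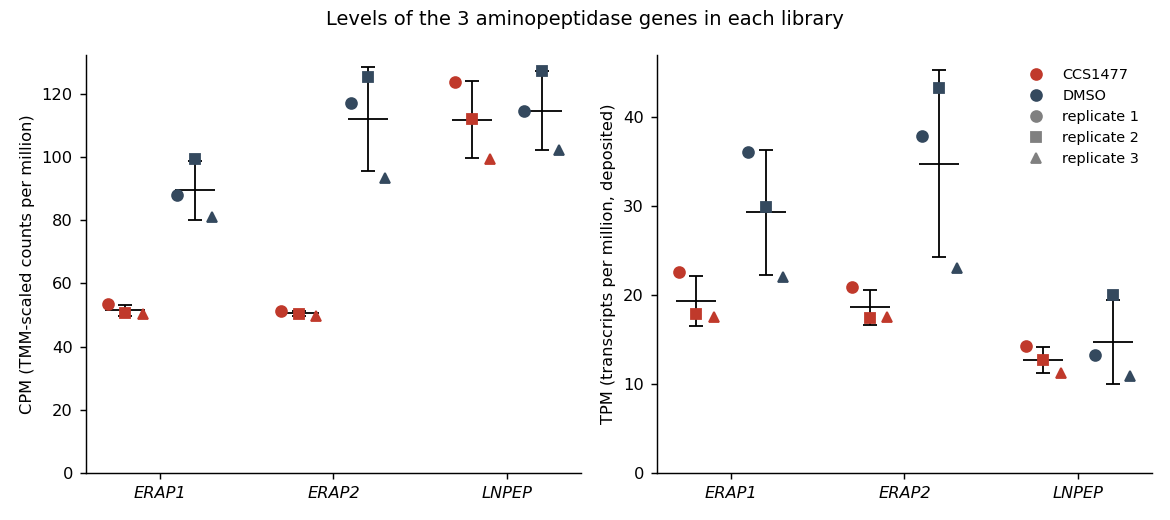
Levels of ERAP1, ERAP2 and LNPEP in each library as CPM after TMM scaling (left panel) and as the deposited TPM (right panel), with 3 CCS1477 libraries left of 3 DMSO libraries for each gene. Points are libraries, and lines with bars are mean ± SD. In CPM the CCS1477 values of ERAP1 and ERAP2 sit between 49.8 and 53.5, below every DMSO value, while those of LNPEP overlap.

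No test is given for these 3 differences, since the genes were chosen with this comparison known. As background, groups did not overlap in the lower direction for 19.3% of the 14928 tested genes, and 10.7% were called lower and 7.23% higher by the quasi-likelihood test of edgeR at a Benjamini-Hochberg adjusted p of 0.05. These are 1597 lower and 1079 higher genes, and scaling by library size alone gave 1361 lower and 1456 higher. Of all tested genes, 432 had a lower log2 fold change than ERAP2, 923 a lower one than ERAP1 and 6803 a lower one than LNPEP.

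The ratios between the 3 genes within a library do not depend on scaling between libraries. They come from the counts by which the genes were chosen, so a separation of the groups restates the fold changes and is no further support. The share of other gene pairs without overlap was not computed. ERAP2 had 0.96, 0.99 and 0.99 counts per ERAP1 count in CCS1477 libraries 1, 2 and 3, against 1.33, 1.26 and 1.15 in DMSO libraries 1, 2 and 3. ERAP2 reads thus outnumbered ERAP1 reads in each DMSO library and not in any CCS1477 library. ERAP1 had 0.463 ± 0.0378 counts per LNPEP count in CCS1477 and 0.780 ± 0.013 in DMSO (SD, n = 3 each). ERAP2 had 0.454 ± 0.0432 counts per LNPEP count in CCS1477 and 0.974 ± 0.0542 in DMSO (SD, n = 3 each). None of the 3 count ratios overlapped between the groups, but the TPM ratio of ERAP1 to LNPEP did, at 1.59, 1.41 and 1.56 in CCS1477 libraries 1, 2 and 3, against 2.72, 1.49 and 2.03 in DMSO libraries 1, 2 and 3. In counts, the ratio of ERAP1 to LNPEP was the least variable of the 3 among DMSO libraries, at 0.767, 0.780 and 0.793. In TPM it was the most variable of the 3 there, with an SD of 0.613 against 0.232 for ERAP2 to ERAP1 and 0.411 for ERAP2 to LNPEP.

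**Figure D2:**
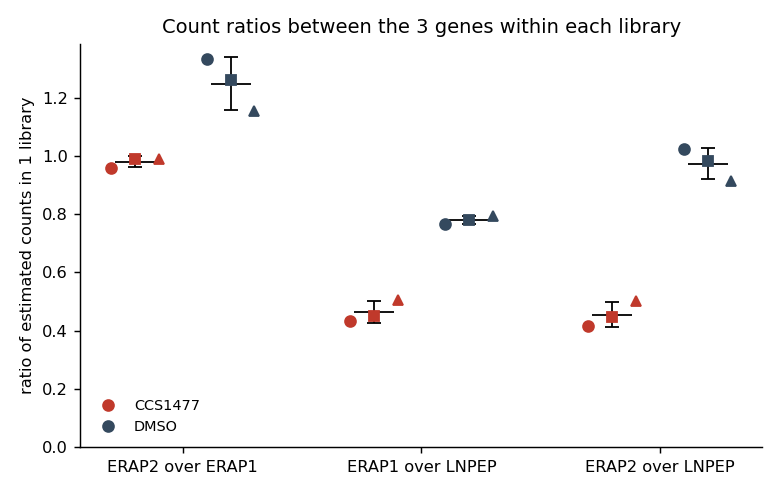
Ratio of estimated counts between pairs of the 3 genes within each library, with 3 CCS1477 libraries left of 3 DMSO libraries for each pair. Points are libraries, and lines with bars are mean ± SD. The ERAP1 to LNPEP ratio averages 0.463 in CCS1477 and 0.780 in DMSO.

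The deposited TPM, which also divide by transcript length, gave smaller differences for ERAP1 and ERAP2 and a larger one for LNPEP. ERAP2 had 20.9, 17.4 and 17.5 TPM in CCS1477 libraries 1, 2 and 3, against 37.9, 43.3 and 23.0 TPM in DMSO libraries 1, 2 and 3, still without overlap. The share of all genes without overlap in TPM was not computed. ERAP1 had 22.5, 17.9 and 17.6 TPM in CCS1477 libraries 1, 2 and 3, against 36.03, 29.9 and 22.02 TPM in DMSO libraries 1, 2 and 3. CCS1477 library 1 and DMSO library 3 overlapped for ERAP1 on this scale. LNPEP had 14.2, 12.7 and 11.3 TPM in CCS1477 libraries 1, 2 and 3, against 13.3, 20.02 and 10.8 TPM in DMSO libraries 1, 2 and 3, where DMSO library 2 stood above the other 5. DMSO library 3 was the lowest DMSO library for all 3 genes in TPM, as it was in CPM. For the median of 9452 well-counted genes, 1 CPM by library total was worth 0.533 TPM in DMSO library 3 and 0.585 to 0.619 TPM in the other 5. On the log2(TPM + 1) scale the differences, CCS1477 minus DMSO, were -0.82 for ERAP2, -0.56 for ERAP1 and -0.16 for LNPEP.

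The count divided by the TPM, set relative to the median gene of the library, gives the transcript length that the authors' quantification implied for a gene. This relative length was 1.497, 1.72 and 1.68 for ERAP2 in CCS1477 libraries 1, 2 and 3, against 1.85, 1.76 and 2.13 in DMSO libraries 1, 2 and 3. The groups did not overlap for ERAP2, but only 1.72 in CCS1477 library 2 and 1.76 in DMSO library 2 kept them apart. The share of all genes without overlap in this length was not computed. For ERAP1 it was 1.44, 1.69 and 1.69 in CCS1477 and 1.46, 2.02 and 1.93 in DMSO, with DMSO library 1 inside the CCS1477 range. For LNPEP it was 5.30, 5.29 and 5.23 in CCS1477 and 5.15, 3.86 and 4.94 in DMSO, where DMSO library 2, the one with the high TPM, was the lowest. The spread of this length within groups was larger than for 81.8% of the 9452 genes in ERAP1, 61.9% in ERAP2 and 71.2% in LNPEP. GENCODE 29 gives 9 transcripts for ERAP1, 11 for ERAP2 and 5 for LNPEP, and the files hold no transcript levels, so the part of transcript choice in these differences was not tested.

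**Figure D3:**
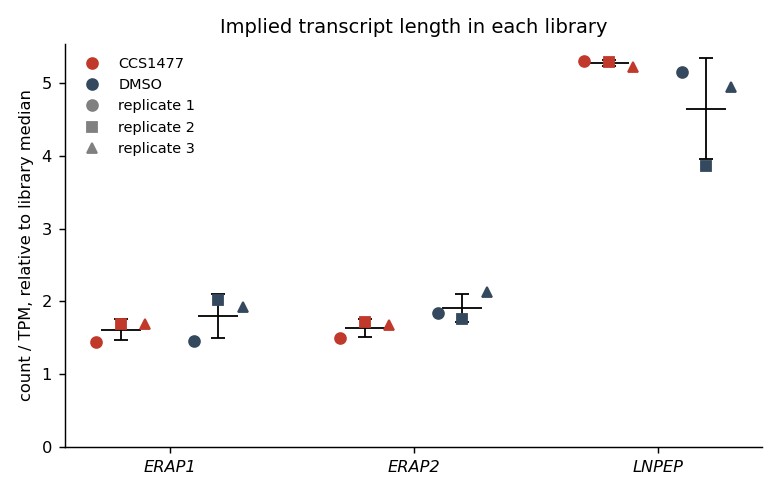
Count divided by TPM for ERAP1, ERAP2 and LNPEP in each library, relative to the median of 9452 genes of that library, with 3 CCS1477 libraries left of 3 DMSO libraries for each gene. Points are libraries, and lines with bars are mean ± SD. The LNPEP value of DMSO library 2, 3.86, stands below the other 5, which lie between 4.94 and 5.30.

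Per length, the ERAP genes stood above LNPEP in both groups. In CCS1477 the mean levels were 19.3 ± 2.80 TPM for ERAP1, 18.6 ± 1.97 TPM for ERAP2 and 12.7 ± 1.48 TPM for LNPEP (SD, n = 3 each). In DMSO they were 29.3 ± 7.02, 34.7 ± 10.5 and 14.7 ± 4.76 TPM for ERAP1, ERAP2 and LNPEP (SD, n = 3 each). ERAP1 and ERAP2 overlapped in both groups, while LNPEP overlapped with neither ERAP gene in either group. Within a library, ERAP1 was above ERAP2 in each CCS1477 library and below it in each DMSO library, by as little as 17.55 against 17.52 TPM in CCS1477 library 3. These orders are descriptions, with no test. LNPEP made up 24.7%, 26.4% and 24.3% of the summed TPM of the 3 genes in CCS1477 libraries 1, 2 and 3, against 15.2%, 21.5% and 19.4% in DMSO libraries 1, 2 and 3, without overlap. These percentages come from the TPM by which the genes were chosen, so they restate the lower ERAP1 and ERAP2 levels. How often other sets of genes lack overlap in this way was not computed. By mean CPM, which is not divided by length, LNPEP ranked first in both groups. In DMSO its lead over ERAP2 was small, at 114.7 ± 12.6 against 112.1 ± 16.5 CPM (SD, n = 3 each), and the 2 genes overlapped. In DMSO library 1 ERAP2 was above LNPEP, at 117.3 against 114.7 CPM.

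Set against the M1 family, the 3 genes were of middle rank. In DMSO the cytosolic enzyme NPEPPS had the highest level of 12 family genes, at 162.4 ± 22.5 TPM, followed by LTA4H at 94.4 ± 1.57 TPM, which makes leukotriene B4, and RNPEP at 90.9 ± 16.2 TPM (SD, n = 3 each). ERAP2, RNPEPL1 at 33.7 ± 3.92 TPM and ERAP1 came next and overlapped with each other, then AOPEP at 20.97 ± 5.995 TPM, whose range reached into those of ERAP1, ERAP2 and LNPEP, and LNPEP (SD, n = 3 each). ENPEP followed at 2.33 ± 2.15 TPM (SD, n = 3). ANPEP, LVRN and TRHDE, which encode surface or ecto-aminopeptidases, had too few counts to be tested. In CCS1477, RNPEPL1 at 48.03 ± 3.41 TPM (SD, n = 3) no longer overlapped with ERAP1 or ERAP2, which were the fifth and the sixth, and LNPEP overlapped with AOPEP.

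Of the 6 other M1 aminopeptidases tested, 0 were called lower and 1 higher, beside 10.7% lower and 7.23% higher over all tested genes. With so few genes, these counts do not set the list apart from all tested genes. RNPEP, an arginine-preferring aminopeptidase, was called higher, at 167.1 ± 3.81 CPM in CCS1477 and 134.3 ± 6.59 CPM in DMSO. Its log2 fold change was 0.31 ± 0.08 (SE, Benjamini-Hochberg adjusted p = 0.0214 in edgeR's quasi-likelihood test). That call was lost without any 1 CCS1477 library or without DMSO library 1. At an unadjusted p under 0.05, edgeR had 0 of the 6 lower, and DESeq2 and limma-voom also called 0 lower. NPEPPS, RNPEPL1 and LTA4H did not pass, at -0.09, 0.19 and 0.18 on the log2 scale. The median of the 6 was 0.04, beside 0.00 over all tested genes.

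Among 16 other peptidases that trim or destroy peptides, 2 were called lower and 1 higher, shares of the list close to those of all genes, with a median log2 fold change of -0.07. On the log2 scale NRDC and NLN, both metallopeptidases, fell by 0.36 and 0.37, while DPP3, which removes dipeptides, rose by 0.39 (Benjamini-Hochberg adjusted p = 0.0242, 0.0299 and 0.0125 in edgeR's quasi-likelihood test). The NRDC and NLN calls were lost without CCS1477 library 2 or 3 or without DMSO library 1 or 2 (NLN also with scaling by library size alone), and the DPP3 call without CCS1477 library 2 or 3 or DMSO library 1. The most abundant genes that did not pass were NPEPPS, DPP9 and METAP2, at -0.09, -0.24 and -0.15, but DPP9 was called lower without DMSO library 3, at -0.29.

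In the endoplasmic reticulum, genes that supply and load peptides were called lower in 4 of 10 cases and higher in 0, beside 10.7% lower and 7.23% higher over all tested genes, with a median log2 fold change of -0.27. This list was chosen with earlier results of these data known, so its counts are a description. TAP2, a subunit of the transporter that feeds ERAP1 and ERAP2, had 84.5, 66.3 and 85.4 CPM in CCS1477 libraries 1, 2 and 3, against 116.9, 141.9 and 121.1 CPM in DMSO libraries 1, 2 and 3. It fell by 0.69 on the log2 scale (SE 0.12, Benjamini-Hochberg adjusted p = 0.00219 in edgeR's quasi-likelihood test). Its partner TAP1 had a log2 fold change of -0.04 and did not pass. On the same scale the chaperones CALR and CANX fell by 0.44 and 0.37 and the TAP bridge TAPBP by 0.31 (adjusted p = 0.0105, 0.00705 and 0.034 in the same edgeR test). The CALR and CANX calls were lost without CCS1477 library 2, and the TAPBP call without any 1 library but DMSO library 3 or with scaling by library size alone, so that 1 gene of the list was called without CCS1477 library 2. ERP44, which retains ERAP1 in the endoplasmic reticulum, had an adjusted p = 0.695 in the same edgeR test, at 0.07 ± 0.10 (SE) on the log2 scale. The MHC class I light chain B2M, PDIA3 and P4HB stood at -0.06, -0.22 and -0.21 and did not pass, but PDIA3 and P4HB were called lower without DMSO library 3, at -0.22 and -0.27. None was higher at an unadjusted p under 0.05 in edgeR, by DESeq2 or by limma-voom. TAP1 and ERP44 were named after their values were seen.

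Among 11 IRF, STAT, NF-κB and NLRC5 genes, 5 were called lower and 0 higher, where all tested genes gave 10.7% and 7.23%, with a median log2 fold change of -0.15. As this list was also chosen with earlier results of these data known, its counts are a description too. IRF9, part of the ISGF3 complex that binds the interferon-stimulated response element, had 4.38, 6.46 and 3.54 CPM in CCS1477 libraries 1, 2 and 3, against 10.2, 10.2 and 11.5 CPM in DMSO libraries 1, 2 and 3. It fell by 1.14 on the log2 scale (SE 0.23, Benjamini-Hochberg adjusted p = 0.00607 in edgeR's quasi-likelihood test), and passed in each of the 15 alternatives run. NLRC5, a transactivator of class I genes, fell by 0.97 and IRF2, which can raise ERAP1 transcription, by 0.73 on the log2 scale (adjusted p = 0.0023 and 0.0116 in the same edgeR test). STAT3 fell by 0.33 on the log2 scale (adjusted p = 0.0201 in the same edgeR test), and its call was lost without any 1 library but DMSO library 3. The IRF2 call was lost without CCS1477 library 2 or DMSO library 1. The list's count of lower genes was 2 without CCS1477 library 2 or DMSO library 1, and 3 without CCS1477 library 1, CCS1477 library 3 or DMSO library 2. STAT2, RELA and NFKB1 did not pass, at -0.13, 0.06 and -0.15, and neither did IRF1, named after its value was seen, at -0.01. None was higher at an unadjusted p under 0.05 in edgeR, by DESeq2 or by limma-voom.

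For LNPEP, genes of the GLUT4 and IRAP storage vesicle and its transport were counted. Of 15, LRP1 was called lower and SORT1 higher, with a median of 0.08, a lower share than the 10.7% of all tested genes and one close to their 7.23% higher. The higher count was 3 with scaling by library size alone or without DMSO library 2, 2 without DMSO library 3, and 0 with a stricter filter or without any 1 of the other 4 libraries. At an unadjusted p under 0.05 in edgeR's quasi-likelihood test, 5 of the 15 were higher and 1 lower. The share of all tested genes at that level is not given here. LRP1, an endocytic receptor, had 123.1 ± 13.1 CPM in CCS1477 and 228.3 ± 32.9 CPM in DMSO (SD, n = 3 each), a log2 fold change of -0.89 ± 0.12 (SE, Benjamini-Hochberg adjusted p = 0.000409 in edgeR's quasi-likelihood test). SORT1, a sorting receptor of these vesicles, stood at 0.30 ± 0.09 (SE, adjusted p = 0.0487 in the same edgeR test), and passed without DMSO library 2 but not without any 1 of the other 5 or with a stricter filter. RAB10, RAB14 and TNKS2 stood at 0.08, 0.22 and 0.26 and did not pass, but RAB14 was called higher with scaling by library size alone, at 0.27, and TNKS2 without DMSO library 2, at 0.38. Over the 57 tested genes of all 5 lists, each counted once, 12 were lower and 3 higher, against 10.7% and 7.23% of all tested genes, with a median log2 fold change of -0.06. All 5 lists were chosen with earlier results of these data known, so these counts are descriptions. Scaling by library size alone gave 9 lower and 5 higher. The lower count was 4 without CCS1477 library 2, 6 without DMSO library 1, and 7 without CCS1477 library 3 or DMSO library 2. The higher count was 1 without CCS1477 library 1, 0 without CCS1477 library 2, CCS1477 library 3 or DMSO library 1, and 5 without DMSO library 2. When log2(TPM + 1) or log2(TPM + 0.1) was tested with limma, 1 of them was called lower, IRF9, and 1 higher, DPP3.

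**Figure D4:**
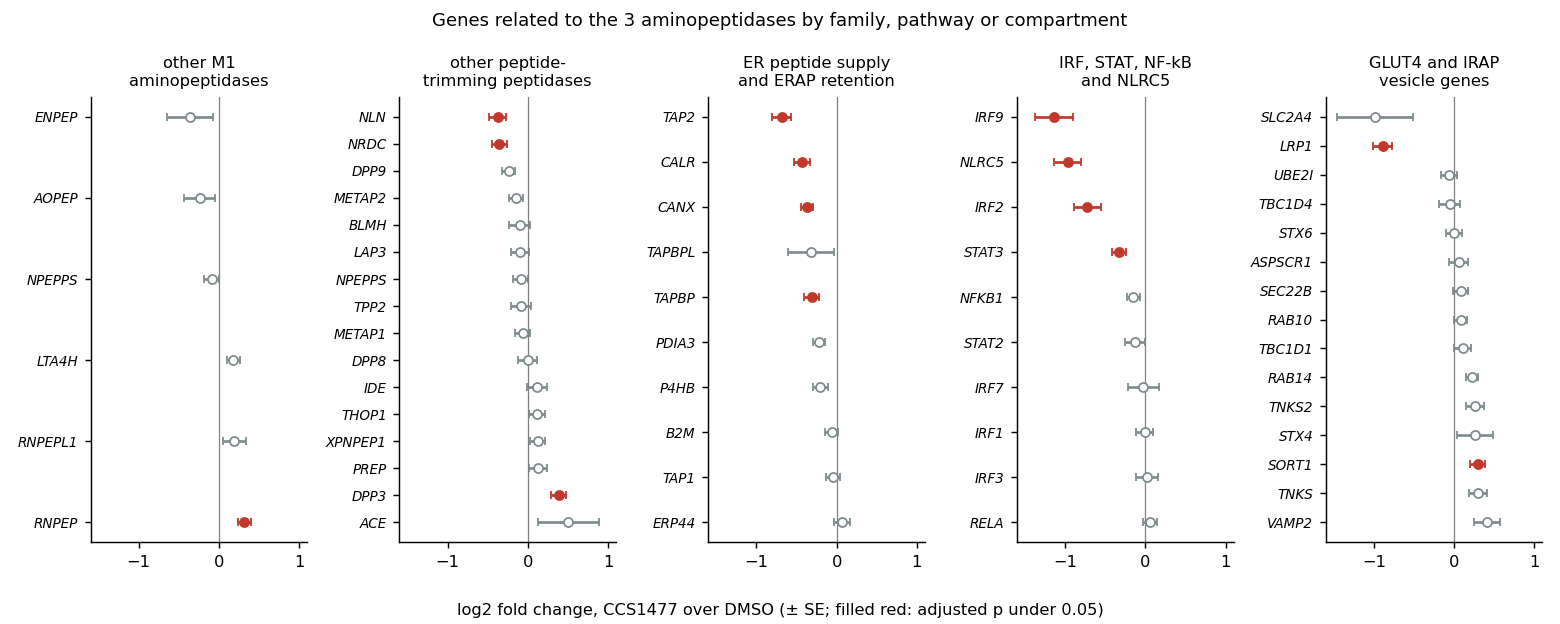
Log2 fold change, CCS1477 over DMSO, of 56 of the 57 tested genes related to the 3 aminopeptidases, in 5 panels by list (NPEPPS is in 2). Points are fitted values with SE bars, and filled red points have an adjusted p under 0.05. IRF9 at -1.14 and NLRC5 at -0.97 are the lowest of the filled points.

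Genes near the 3 aminopeptidase genes on chromosome 5 were counted as well. In the files, 42 other genes overlap a window reaching 1 Mb to each side of the 3 genes, of which 27 had 0 counts in all libraries and 6 were tested. None of the 6 was called lower or higher, beside 10.7% lower and 7.23% higher over all tested genes. None had an unadjusted p under 0.05 in edgeR, and DESeq2 and limma-voom also called 0. With 6 genes, a count of 0 is near those shares and does not show whether the differences extended along the chromosome. CAST, the gene of the calpain inhibitor calpastatin, had 319.0 ± 24.2 CPM in CCS1477 and 301.0 ± 31.9 CPM in DMSO (SD, n = 3 each), a log2 fold change of 0.08 ± 0.10 (SE, Benjamini-Hochberg adjusted p = 0.614 in edgeR's quasi-likelihood test). ELL2, an elongation factor, and RHOBTB3 did not pass, at -0.12 and -0.19, but RHOBTB3 was called lower without DMSO library 3, at -0.29. In a window of 3 Mb, 15 genes were tested, of which MCTP1 was lower, at -0.92, and SLF1 higher, at 0.49. MCTP1 and SLF1 were named after their values were seen.

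CAST overlaps ERAP1 on the opposite strand over 18786 bases, 39.7% of the ERAP1 span, and the strand setting of the counting is not given in the sources used here, so reads of the overlap cannot be assigned with certainty. The antisense gene ENSG00000247121 spans all of ERAP2 and the first 416 bases of LNPEP. It had 98 counts over the 6 libraries, against 4980 for ERAP2, with 2.10 ± 1.30 CPM in CCS1477 and 1.46 ± 1.02 CPM in DMSO (SD, n = 3 each). Another antisense gene, ENSG00000272109, lies inside ERAP1 and had 35 counts over the 6 libraries, against 4258 for ERAP1.

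**Figure D5:**
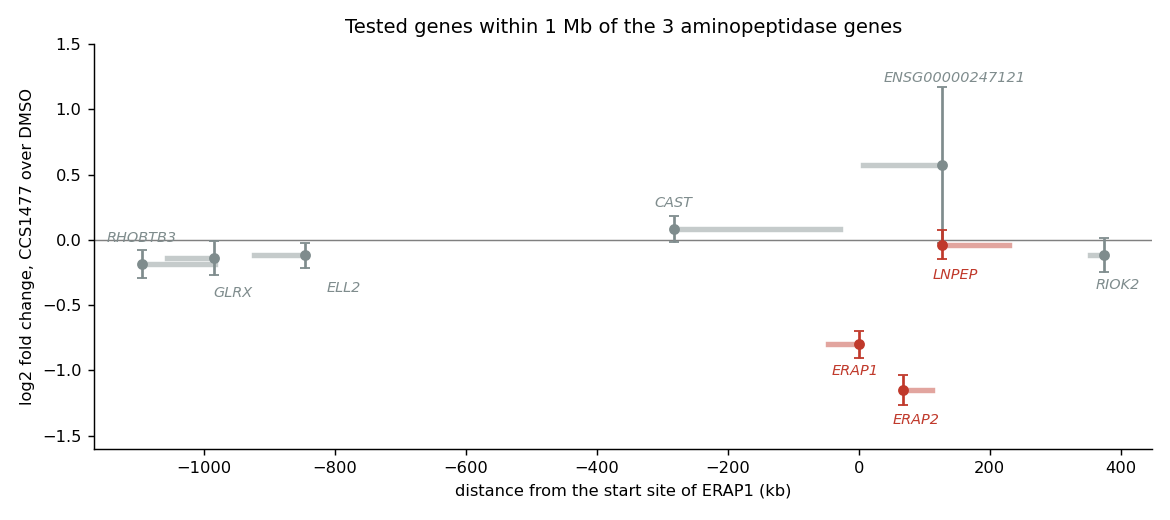
Log2 fold change, CCS1477 over DMSO, of the 9 tested genes in the 1 Mb window against distance from the ERAP1 start site in kb. Points with SE bars stand at start sites and pale bars show gene bodies, red for the 3 aminopeptidase genes and grey for others. ERAP1 and ERAP2 lie at -0.80 and -1.15, between CAST at 0.08 on one side and LNPEP at -0.04 on the other.

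The genes most like each aminopeptidase were found by the root mean square difference of log2 CPM, centred on the mean of the 6 libraries, among 11501 other genes with a mean of at least 5 CPM. The 6 libraries fall into 2 groups, so this likeness rests largely on the size of the group difference. Nearest to ERAP2 were CDH1, AFAP1, PDE4D, CD109 and CAMK1D, at 0.042 to 0.079, where the median gene stood at 0.606. CDH1 is the gene of the adhesion molecule E-cadherin, one of the epithelial markers above. Nearest to ERAP1 were TIMP2, TGFBR2, CD55, THTPA and ANXA6, at 0.032 to 0.057, where the median gene stood at 0.438. TIMP2, an inhibitor of matrix metalloproteinases, had 227.5 ± 10.8 CPM in CCS1477 and 397.2 ± 37.0 CPM in DMSO (SD, n = 3 each). Nearest to LNPEP were ENPP4, ZNF791, NIPSNAP2, GPD2 and PRDM2, at 0.021 to 0.032, where the median gene stood at 0.225. The distance between ERAP1 and ERAP2 was 0.184. This made ERAP1 the 109th nearest gene to ERAP2, and ERAP2 the 444th nearest gene to ERAP1.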

How the data were processed

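Per gene and library, the authors deposited estimated counts, not normalized, in 1 table, and TPM in another. The sources are the file headers and values, since the labels give no more. Per the submitters' processing notes, Trimmomatic 0.39 was used, and the sources used here do not name the aligner, quantifier, build or strand setting. Of 58561 gene IDs also in GENCODE 29, 79.9% had its GRCh38 position within 1 base.

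Estimated counts were rounded. Genes were kept by filterByExpr of edgeR 4.0.16 (minimum count 10, minimum total 15), scaled by TMM and compared by edgeR's quasi-likelihood test without covariates, with Benjamini-Hochberg adjustment over all genes at 0.05. SEs come from the test statistic. DESeq2 1.42.0, limma 3.58.1 (voom, log2(TPM + 1) and log2(TPM + 0.1)) and other settings were alternatives. The test was checked on simulated data. A planned exact permutation test between the levels of the 3 genes is not given, since its smallest p with 3 libraries is 0.1 and the genes share their libraries. The floor is a set 3 counts, and the counting error given for the lowest count leaves out variation between libraries. The SEs include the variation among these libraries. R 4.3.3, Python 3.11.15 and matplotlib 3.10.9 were used.

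The 3 genes and the lists were chosen with earlier results of these data known. Named from each list and from the 1 Mb window were the genes past the threshold and the 3 with the highest CPM of the rest, and for each aminopeptidase its 5 nearest genes. The values of 1 gene that this rule names are not reported here.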

Additional observations from a re-analysis of the deposited data

How the results depend on the processing

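The log2 fold changes of ERAP1 and ERAP2 stayed negative in all 15 alternatives run. They were smaller on the log2(TPM + 1) scale, at -0.56 and -0.82, and on the log2(TPM + 0.1) scale, at -0.58 and -0.85, and lay between -0.87 and -0.71 and between -1.27 and -1.06 when 1 library was left out. LNPEP ranged from -0.17 to 0.05 and changed sign with scaling by library size alone and without some libraries. On these TPM scales LNPEP was lower than in edgeR, at -0.16 and -0.17. The cause of the shifts on the TPM scales was not tested.

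Over all genes, 427 were lower and 293 higher on log2(TPM + 1), and 410 and 280 on log2(TPM + 0.1), against 1597 and 1079 in edgeR, and leaving out 1 library gave 925 to 1772 lower and 487 to 1311 higher. Of the related genes, 1 was lower and 1 higher on each TPM scale, and 9 were lower and 5 higher with scaling by library size. Leaving out 1 library gave 4 to 15 lower and 0 to 5 higher. The gene lower on the TPM scales was IRF9. In the 1 Mb window, leaving out 1 library gave 0 to 1 lower, and widening it to 3 Mb gave 1 lower and 1 higher. Counts of the 5 lists taken singly, added after seeing the data, moved by over 1.5 times in 43 of 150 cases. The TPM order of the 3 genes in DMSO held without each library.

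Replicate numbers did not pair the samples: deviations of same-numbered libraries correlated across genes at -0.09, -0.20 and -0.03. With the replicate block, 1 related gene was higher and 8 were lower, 1306 of all genes were lower and 799 higher, and ERAP1, ERAP2 and LNPEP stood at -0.79, -1.14 and -0.04. The RNPEP and NRDC calls were among those lost. With 3 libraries a group, an exact test of a single value cannot go below p = 0.1, so none was used for a call. ENSG00000247121 and the low family genes are limited by depth.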
